A study of Mus musculus with 4 samples.

Results

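The genes described here are 35 genes that store, release, pump or admit calcium, taken by gene symbol from the 55467 gene rows of a series on cultured mouse astrocytes. Each symbol stood on 1 gene ID, and all 35 were found. Calcium in a resting cell is kept low in the cytosol by pumps and exchangers and high in the endoplasmic reticulum, from which it is let out through inositol trisphosphate (IP3) receptors and ryanodine receptors. When the store empties, STIM proteins of its membrane open Orai channels at the cell surface, and mitochondria take calcium up through a uniporter and give it back through a sodium exchanger. Astrocytes are electrically quiet and are known to signal largely by such store release, mainly through IP3 receptors. CD38, the enzyme removed in this study, is known to make cyclic ADP-ribose, NAADP and ADP-ribose, messengers that act on ryanodine receptors, on the endolysosomal TPC channels and on the TRPM2 channel respectively.

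RNA was measured in 4 polyA-selected libraries of primary astrocytes from the cortex of newborn mice, 2 labelled wild type (WT) and 2 labelled CD38 KO. Both genotypes were grown in serum for 14 days, shaken, replated and harvested 5 days later, with no other treatment named. The labels give neither the strain nor the deleted exons, so loss of Cd38 and a strain difference between the genotypes cannot be told apart. Nor do they say that the replicates are different animals or cultures, so the p-values reflect nothing beyond the variation among these 4 libraries, which may be technical.

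The promoters of the 3 members with the largest called changes are shown first, for the plasma membrane pumps Atp2b4 and Atp2b2, which changed in opposite directions, and for the channel Trpm2. Each run is 300 bases around a RefSeq transcription start on GRCm38.p6, 5′ to 3′ on the gene's strand, and capitals mark every GGGCGG (a GC box) or TATAAA, or the reverse complement of either. The windows are chr1:133753698-133753997 (minus strand) for Atp2b4, chr6:114042031-114042330 (minus strand) for Atp2b2 and chr10:77969823-77970122 (minus strand) for Trpm2. All 3 windows lie inside their annotated genes, which extend further upstream. The genes reach position 133801041 for Atp2b4, 114042613 for Atp2b2 and 77970563 for Trpm2. The Atp2b2 window is the most upstream of 3 listed starts.
Atp2b4: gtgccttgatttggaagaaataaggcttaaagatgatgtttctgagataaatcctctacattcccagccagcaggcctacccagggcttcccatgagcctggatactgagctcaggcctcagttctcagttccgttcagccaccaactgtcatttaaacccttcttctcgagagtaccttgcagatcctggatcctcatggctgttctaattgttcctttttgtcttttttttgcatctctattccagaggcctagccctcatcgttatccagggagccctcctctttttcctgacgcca
Atp2b2: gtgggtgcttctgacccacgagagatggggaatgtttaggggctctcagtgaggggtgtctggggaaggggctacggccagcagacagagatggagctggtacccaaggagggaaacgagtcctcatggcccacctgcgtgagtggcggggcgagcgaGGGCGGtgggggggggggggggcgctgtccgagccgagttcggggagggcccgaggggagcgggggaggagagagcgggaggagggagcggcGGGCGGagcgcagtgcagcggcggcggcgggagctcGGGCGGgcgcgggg
Trpm2: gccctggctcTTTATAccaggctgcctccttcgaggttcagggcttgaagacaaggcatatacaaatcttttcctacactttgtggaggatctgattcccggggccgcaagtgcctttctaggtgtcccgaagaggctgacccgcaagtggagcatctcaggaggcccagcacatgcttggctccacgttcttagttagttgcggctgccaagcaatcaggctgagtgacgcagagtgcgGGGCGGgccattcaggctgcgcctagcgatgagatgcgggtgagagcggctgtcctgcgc

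The 3 windows differ in base composition. GC content was 47.7% with 4 CpG sites for Atp2b4, 72.7% with 27 CpG sites for Atp2b2 and 58.3% with 15 CpG sites for Trpm2. The windows at the other listed Atp2b2 starts had a lower GC content than the printed one, with 8 and 12 CpG sites. How far Atp2b2 differs from the other genes thus depends on the start chosen. In all, 31 such windows matched 27 of the 35 members, with a median GC content of 62.3% and a median of 21 CpG sites, against 52.7% and 7 CpG sites over 32851 windows of the same length. GGGCGG was present on either strand in 21 of the 31 member windows, against 35.7% of all windows, and TATAAA in 1, that of Trpm2, against 13.6% of all. These letters are a description of the windows, and no binding was measured.

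The labels were checked before the members were compared. Cd38 read 3.13 FPKM in WT 1 and 3.45 FPKM in WT 2, and 0.0222 FPKM in both CD38 KO libraries, FPKM being fragments per kilobase of transcript scaled to the mapped fragments of the library. The libraries held an estimated 26855000 to 29085000 fragments. Astrocyte markers summed to 2964 to 3064 FPKM in WT and 2683 to 2704 FPKM in CD38 KO over 10 genes, with Gfap and Slc1a3 high and Gjb6 under 1 FPKM in every library. Of the 9 tested astrocyte markers 5 were called lower (S100b, Aldoc, Aqp4, Sox9 and Slc1a3, with log2 changes from -1.22 to -0.22) and 2 higher (Aldh1l1 and Gja1). The oligodendrocyte lineage list summed to 168 to 175 FPKM in WT and 137 to 150 FPKM in CD38 KO, with Pdgfra and Olig2 called lower among 6 tested. Markers of microglia and macrophages, the phagocytes of the brain, were present too and summed to 106 to 119 FPKM in WT and 719 to 810 FPKM in CD38 KO over 15 genes. All 14 tested genes of that list were called higher, but 3 of them (Cx3cr1, Itgam and Tmem119) had a WT mean under 1 FPKM and were tested only because of their CD38 KO level. The remaining gene, P2ry12, was at 0.633 FPKM or less. The 8 neuron markers summed to 67.3 to 67.6 FPKM in WT and 89.1 to 97.3 FPKM in CD38 KO, and 1 of 4 tested, Stmn2, was called higher (29.7 against 55.5 FPKM on average). Tubb3 and Map2 were above 10 FPKM and not called, while Rbfox3, Snap25, Syt1 and Nefl were at 0.12 FPKM or below, Snap25 being listed at 0 in WT 2. In further lists, Cnn1 of mural and smooth muscle cells and Rsph1 of ependyma were called lower, and Foxj1 of ependyma higher. No tested marker of fibroblasts and meninges or of striated muscle was called. The 5 endothelial markers, all under the filter, summed to 0.748 to 1.01 FPKM in WT and 1.94 to 2.05 FPKM in CD38 KO. The part of these cell types in the changes of the calcium genes was not tested. In bulk RNA, a different number of cells of a type and a different amount of RNA per cell cannot be told apart.

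Of the calcium genes, 4 changed between the genotypes and 21 were tested and not called. Of the 35 members, 25 had a mean of at least 1 FPKM and were tested by limma on log2(FPKM + 1), a gene being called at a Benjamini-Hochberg adjusted p under 0.05 over all 13064 tested genes. The pump Atp2b2, the mitochondrial exchanger Slc8b1 and the channel Trpm2 rose in CD38 KO, and the pump Atp2b4 fell. That is 3 members higher and 1 lower, 16% of those tested, where 14.4% of all tested genes were called, 8.0% higher and 6.35% lower. The members' share of calls was thus near that of all genes. Trpm2 is counted there although its WT mean was under 1 FPKM, so it was tested only because of its CD38 KO level. At an unadjusted p under 0.05 there were 12 members, 8 higher and 4 lower, where 30.3% of all tested genes reached it. The groups did not overlap for 18 of the 25, 9 in each direction, against 59.9% of all tested genes. The median log2 change of the tested members was -0.002 and the median of its size was 0.22, beside 0.001 and 0.12 for all tested genes. With quantile normalization or median-of-ratios scaling the calls were 3 higher and 2 lower, Orai1 being added. Without 1 library only Atp2b4 remained called in every fit. In those fits limma called 1 member higher when WT 2 was left out and 0 when any of the other 3 was, with 5 to 7 members higher at an unadjusted p under 0.05.

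**Figure D1:**
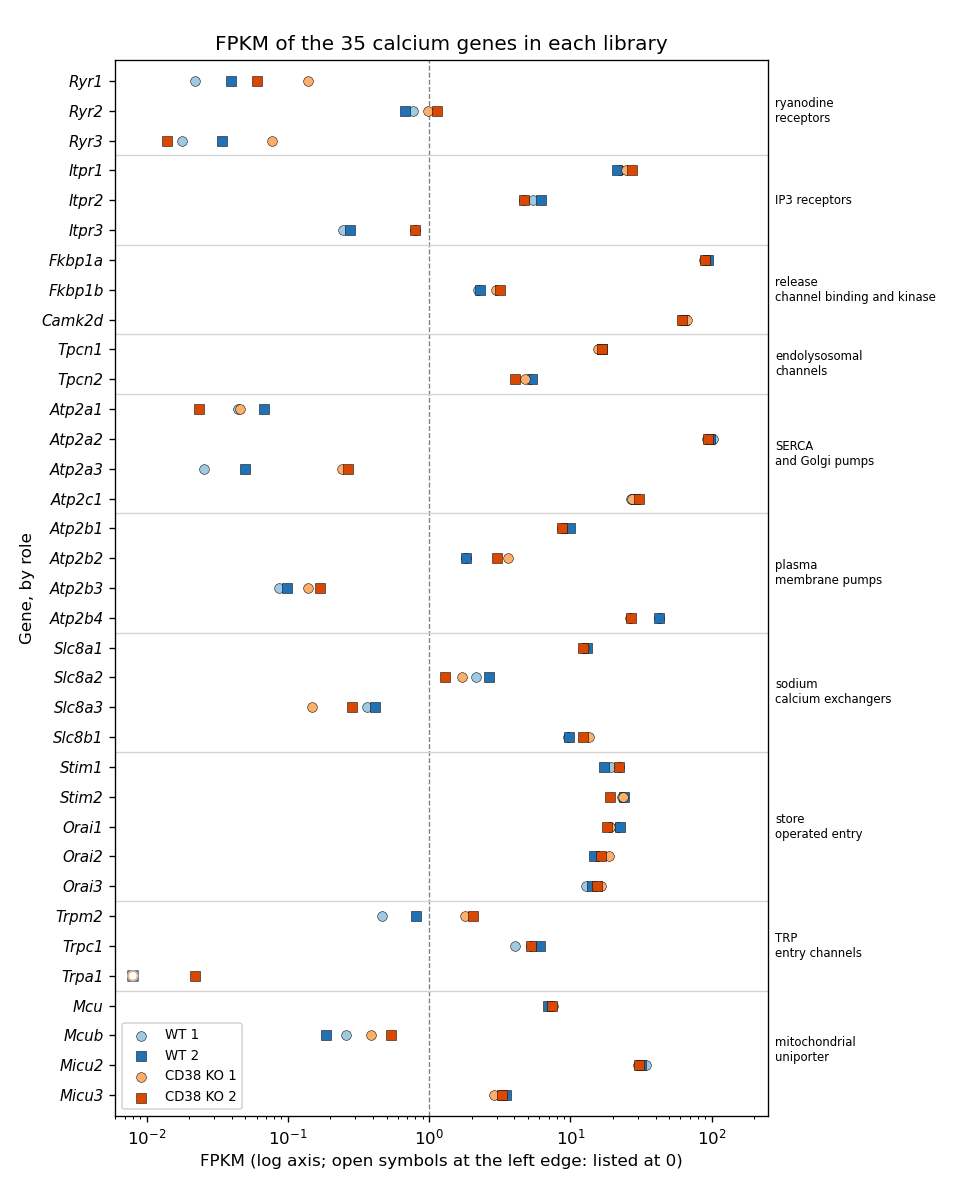
FPKM of each of the 35 genes on a log axis, 1 symbol per library and genes grouped by role, with a dashed line at 1 FPKM. The SERCA pump Atp2a2 and the ryanodine receptor partner Fkbp1a lie furthest right, and Ryr1, Ryr3, Atp2a1 and Trpa1 lie toward the left. Ryr2 lies near the dashed line. The WT and CD38 KO symbols separate clearly for Atp2b4, and lie further apart for the scarcer Atp2a3, Itpr3 and Trpm2.

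Plasma membrane pumps, which push calcium out of the cell at the cost of ATP, were the family with 2 called genes, 1 in each direction. Atp2b4 (ENSMUSG00000026463, GRCm38 chromosome 1, 133699457 to 133801041) gave 42.5 and 42.2 FPKM in the WT pair and at 26.3 and 26.7 FPKM in the CD38 KO pair. Both CD38 KO libraries were well below both WT libraries, with little spread in either pair. The means were 42.4 ± 0.245 and 26.5 ± 0.295 FPKM (SD, n = 2 each), which is lower by 1.6 times (log2 change -0.66, SE 0.05, limma adjusted p = 0.000805). In fits without 1 library the log2 change stayed between -0.67 and -0.65, with adjusted p of 0.0147 to 0.0245, and over all 14 alternatives the adjusted p ranged from 0.000426 to 0.0245.

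Atp2b2, a pump best known from neurons and the hair cells of the ear, changed the other way. Atp2b2 (ENSMUSG00000030302, chromosome 6, 113743831 to 114042613) gave 1.83 and 1.82 FPKM in the WT pair and at 3.63 and 3.04 FPKM in the CD38 KO pair. The CD38 KO libraries were both above WT but spread more. The fold was 1.83 (log2 change 0.62, SE 0.12, limma adjusted p = 0.0239). Its call ended in each fit without 1 library (adjusted p 0.0644 to 0.115), and without a filter on low values (0.107), and its alternatives spanned 0.0165 to 0.115.

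Atp2b1, the pump found in most cells, stood at 9.18 and 9.99 FPKM in the WT pair and at 8.73 and 8.65 FPKM in the CD38 KO pair and was not called (log2 change -0.13, 95% interval -0.30 to 0.05). Atp2b3, the remaining pump, was at 0.0863 to 0.168 FPKM and was not tested. Atp2b4 was the main transcript of the family per length in every library. Its share of the family's summed FPKM was 78.7% ± 0.935 in WT and 68.5% ± 1.04 in CD38 KO (SD, n = 2 each), while Atp2b2 took 3.39% and 8.63% and Atp2b1 17.8% and 22.5%. The summed level of the 4 genes was 53.6 and 54.1 FPKM in WT and 38.8 and 38.6 FPKM in CD38 KO, so the gain in Atp2b2 was smaller than the loss in Atp2b4.

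**Figure D2:**
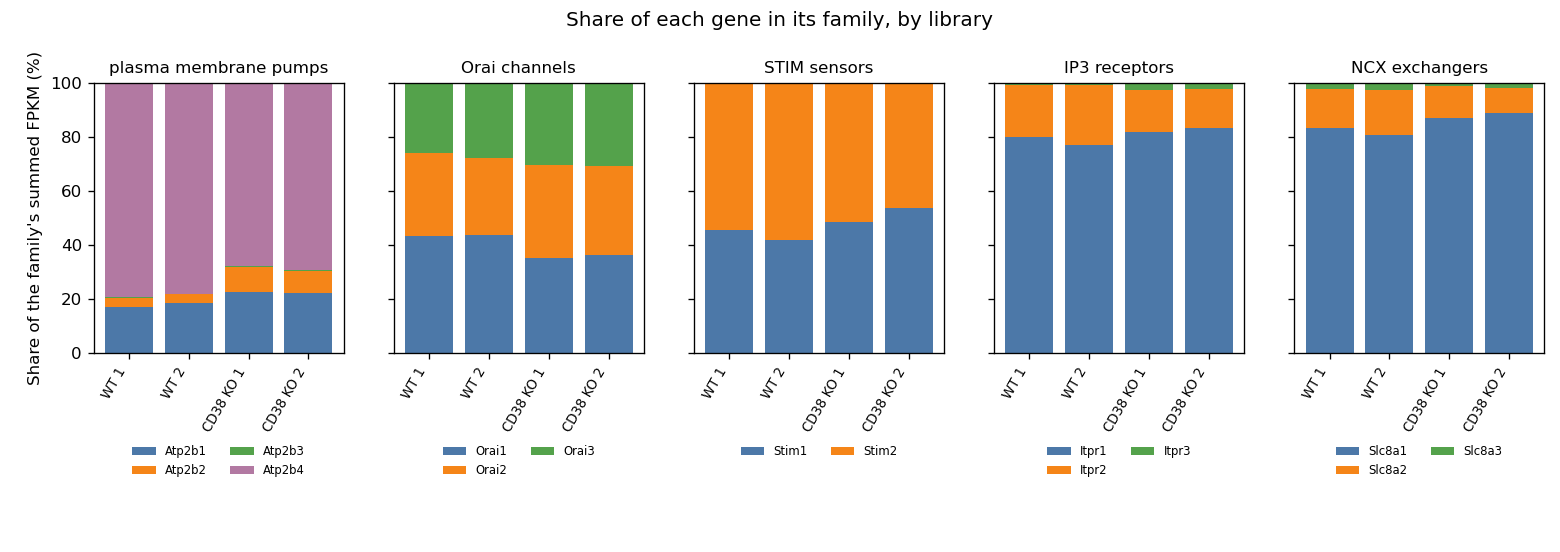
Share of each gene in the summed FPKM of its family, in percent, as stacked bars for each of the 4 libraries and 5 families. Atp2b4 fills most of the plasma membrane pump bars, less so in CD38 KO, and the Orai1 share is also smaller in both CD38 KO libraries.

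Sodium-calcium exchangers trade calcium for sodium, Slc8a1 to Slc8a3 at the cell surface and Slc8b1 (NCLX) at the inner membrane of mitochondria. Slc8b1 (ENSMUSG00000032754, chromosome 5, 120511168 to 120534024) gave 9.65 and 9.84 FPKM in the WT pair and at 13.6 and 12.3 FPKM in the CD38 KO pair. Both CD38 KO libraries were higher, and the WT pair was tight. The mean rose from 9.75 ± 0.134 to 12.9 ± 0.892 FPKM (SD, n = 2 each), that is 1.33-fold (log2 change 0.37, SE 0.07, limma adjusted p = 0.0259). Leaving out any single library ended the call (adjusted p 0.0826 to 0.151), and so did testing without a filter (0.0908). All its alternatives spanned 0.0213 to 0.151.

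The end of Slc8b1 lies 128 bases from the end of Tpcn1, which is read from the opposite strand and did not share the change. Tpcn1 stood at 16 and 16.6 FPKM in the WT pair and at 15.8 and 16.8 FPKM in the CD38 KO pair. Among the surface exchangers, Slc8a1 was the main form, at 12.4 and 13 FPKM in the WT pair and at 12.4 and 12.3 FPKM in the CD38 KO pair, and was not called (log2 change -0.03, 95% interval -0.18 to 0.12). Slc8a2, a form best known from neurons, stood at 2.14 and 2.67 FPKM in the WT pair and at 1.71 and 1.29 FPKM in the CD38 KO pair. The groups did not overlap, but the change missed the threshold (log2 change -0.45, SE 0.15, limma adjusted p = 0.105). Slc8a3 stood at 0.361 and 0.411 FPKM in the WT pair and at 0.149 and 0.286 FPKM in the CD38 KO pair and was not tested.

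Channels of the TRP family let calcium and other cations in at the cell surface. Trpm2 (ENSMUSG00000009292, chromosome 10, 77907722 to 77970563), which ADP-ribose opens, gave 0.464 and 0.814 FPKM in the WT pair and at 1.78 and 2.05 FPKM in the CD38 KO pair. Both CD38 KO libraries were above both WT libraries, and the WT pair differed within itself by more than the CD38 KO pair. The mean rose from 0.639 ± 0.247 to 1.91 ± 0.188 FPKM (SD, n = 2 each), that is 2.99-fold (log2 change 0.84, SE 0.16, limma adjusted p = 0.0262). Its WT mean was under the filter of 1 FPKM, so Trpm2 was tested only because of its CD38 KO level. The call ended without WT 1 (adjusted p = 0.0828), CD38 KO 1 (0.11) and CD38 KO 2 (0.126) and without a filter (0.0989), and its alternatives spanned 0.0158 to 0.126.

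Trpm2 is known to be expressed by microglia and macrophages, whose markers also rose. Relative to the WT mean, the summed microglia and macrophage markers were at 7.21 and 6.40 in the CD38 KO libraries and Trpm2 at 2.79 and 3.20. Itpr3 was at 3.04 and 3.05 on the same scale and Atp2a3, a SERCA pump known from blood cells, at 6.43 and 7.10. The part of those cells in the change of these 3 genes was not tested. Lyz2 alone gave 428.7 and 375.5 of the 810.1 and 718.7 FPKM of the marker sum in the CD38 KO libraries. Over the 15 listed markers the fold ran from 1.29 (P2ry12, not tested) to 12.1 (Cx3cr1). Trpc1, a cation channel of many tissues, stood at 4.07 and 6.11 FPKM in the WT pair and at 5.24 and 5.23 FPKM in the CD38 KO pair, with the widest 95% interval among the members not called (log2 change 0.05, -0.36 to 0.46). Trpa1, a channel for irritants that has been described in astrocytes, was listed at 0 in 3 libraries and at 0.0220 FPKM in CD38 KO 2, which stands for at most 3 fragments.

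**Figure D3:**
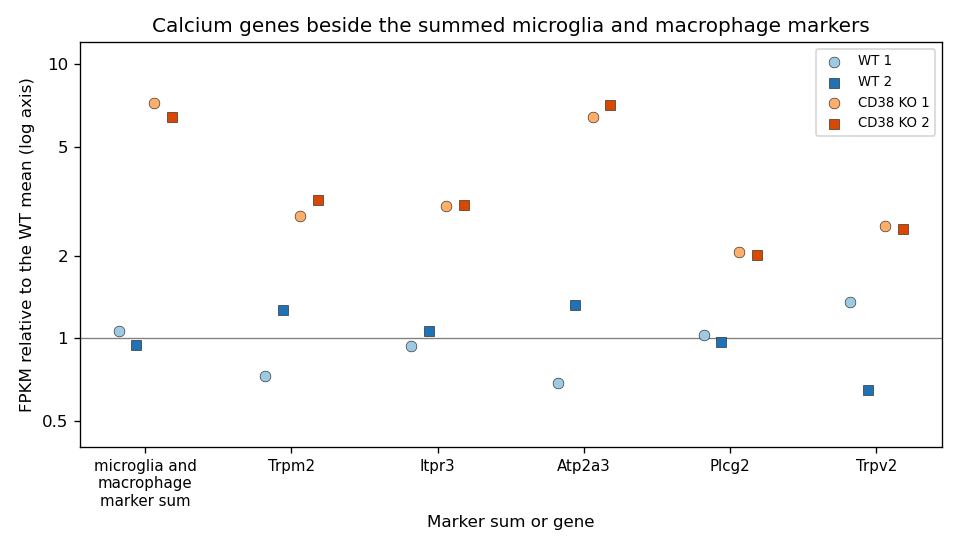
Level in each library relative to the WT mean, on a log axis, for the summed microglia and macrophage markers and for 5 genes of calcium signalling chosen after their values were seen. The CD38 KO symbols lie above the WT symbols in every column, from 2.02 for Plcg2 to 7.21 for the marker sum. Lyz2 is the largest part of the marker sum.

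**Figure D4:**
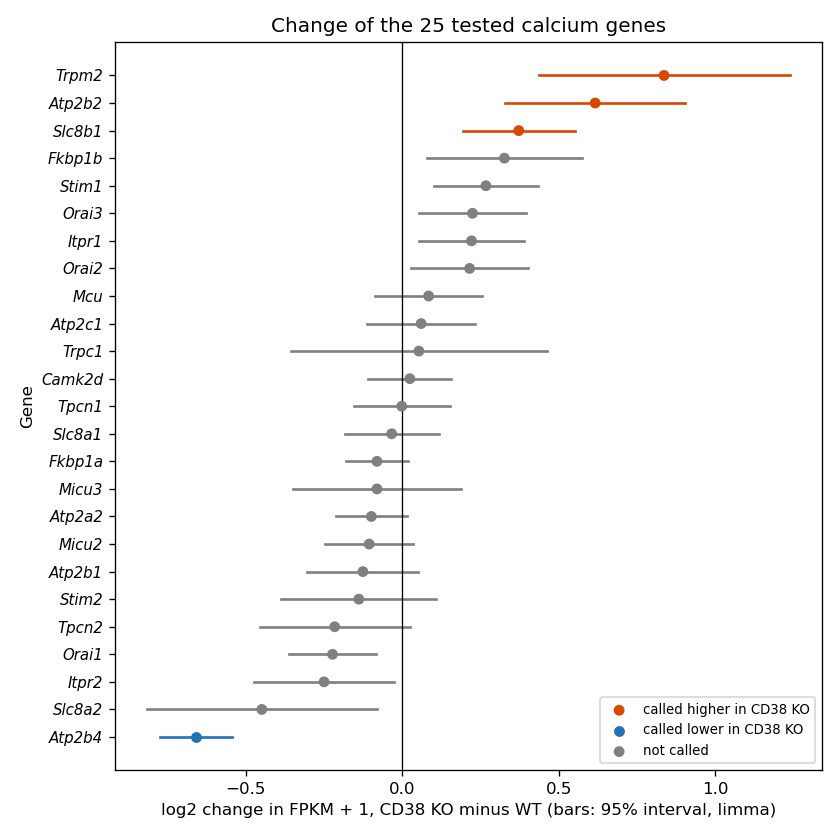
Log2 change in FPKM + 1, CD38 KO minus WT, for the 25 tested genes, sorted from the most negative to the most positive, with 95% intervals from limma. Atp2b4 stands apart at the lower end with a short interval, and Trpm2 at the upper end has a wide one.

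The release channels of the endoplasmic reticulum held no called gene. Itpr1, the main IP3 receptor here, stood at 22.5 and 21.5 FPKM in the WT pair and at 24.5 and 27.2 FPKM in the CD38 KO pair (log2 change 0.22, SE 0.07, limma adjusted p = 0.0877). Itpr2, the receptor best known from astrocytes, stood at 5.41 and 6.14 FPKM in the WT pair and at 4.70 and 4.67 FPKM in the CD38 KO pair (log2 change -0.25, SE 0.09, limma adjusted p = 0.128). Neither pair of groups overlapped, and both changes stayed short of the threshold in all 14 alternatives each.

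Per length, Itpr1 took 78.5% ± 2.03 of the family's summed FPKM in WT and 82.5% ± 1.08 in CD38 KO (SD, n = 2 each), and Itpr2 took 20.6% ± 1.95 and 15.0% ± 0.942. Itpr3, the form of epithelia and immune cells, stood at 0.245 and 0.277 FPKM in the WT pair and at 0.792 and 0.796 FPKM in the CD38 KO pair, or 3.05-fold higher. It was under the filter, and in the fit without a filter limma gave an adjusted p of 0.0473 (log2 change 0.51).

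Ryanodine receptors, the channels on which cyclic ADP-ribose acts, were scarce. Ryr2, the form of heart and brain, stood at 0.767 and 0.679 FPKM in the WT pair and at 0.987 and 1.13 FPKM in the CD38 KO pair, under the filter on average. Both CD38 KO libraries were higher, but the fit without a filter did not call it (log2 change 0.26, limma adjusted p = 0.246). Ryr1, the form of skeletal muscle, stood at 0.0221 and 0.0399 FPKM in the WT pair and at 0.138 and 0.0601 FPKM in the CD38 KO pair, at most 9, 17, 61 and 27 fragments if all came from its longest transcript. Ryr3 was at 0.0139 to 0.0775 FPKM, at most 34 fragments in a library, and its genotypes overlapped. Counts of this size limit what can be said of Ryr1 and Ryr3.

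Of the proteins that bind or phosphorylate release channels, Fkbp1a, the immunophilin FKBP12, was among the most abundant members, at 92.9 and 94.2 FPKM in the WT pair and at 88.0 and 88.9 FPKM in the CD38 KO pair. It was not called (log2 change -0.08, 95% interval -0.18 to 0.02). Its relative Fkbp1b, known for binding the ryanodine receptor of the heart, stood at 2.21 and 2.28 FPKM in the WT pair and at 2.99 and 3.15 FPKM in the CD38 KO pair. Both pairs were tight and did not overlap, and the change missed the threshold (log2 change 0.33, SE 0.10, limma adjusted p = 0.0888), passing only with moderation without a trend (0.0377). Camk2d, a calmodulin-dependent kinase, stood at 63.2 and 63.6 FPKM in the WT pair and at 67.1 and 62.0 FPKM in the CD38 KO pair and was not called (log2 change 0.02, 95% interval -0.11 to 0.16).

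The TPC channels of endosomes and lysosomes, on which NAADP acts, were not called either. Tpcn1, given above, had a log2 change of -0.002 (95% interval -0.16 to 0.15). Tpcn2 stood at 5.21 and 5.36 FPKM in the WT pair and at 4.77 and 4.07 FPKM in the CD38 KO pair (log2 change -0.22, 95% interval -0.46 to 0.02). Tpcn1 was the main form per length, with 75.5% of the summed FPKM in WT and 78.7% in CD38 KO.

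The pumps that fill the stores were carried almost wholly by Atp2a2, the common SERCA pump. Atp2a2 was the most abundant member, at 102 and 97.3 FPKM in the WT pair and at 92.5 and 93.8 FPKM in the CD38 KO pair. The groups did not overlap, and the gene was not called (log2 change -0.10, 95% interval -0.21 to 0.01). Atp2a2 made up 99.9% of the summed SERCA FPKM in WT and 99.7% in CD38 KO on average. Atp2a3 stood at 0.0257 and 0.0493 FPKM in the WT pair and at 0.241 and 0.266 FPKM in the CD38 KO pair, 6.76-fold higher, on at most 3, 6, 31 and 34 fragments. It was under the filter, and the fit without a filter gave a limma adjusted p of 0.0529. Atp2a1, the pump of skeletal muscle, was at 0.0237 to 0.0673 FPKM, at most 6 fragments in a library. Atp2c1, which fills the Golgi apparatus with calcium and manganese, stood at 26.9 and 28.6 FPKM in the WT pair and at 27.5 and 30.5 FPKM in the CD38 KO pair and was not called (log2 change 0.06, 95% interval -0.11 to 0.23).

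Store-operated entry genes all lay between 12.9 and 23.9 FPKM in every library, and none was called. Stim1, the sensor of store calcium, stood at 19.2 and 17.3 FPKM in the WT pair and at 22.2 and 22.1 FPKM in the CD38 KO pair. Both CD38 KO libraries were higher (log2 change 0.27, SE 0.07, limma adjusted p = 0.0534), and the gene passed with a filter at 5 FPKM (0.0453) and with robust moderation (0.0466). Stim2, which answers smaller losses of store calcium, stood at 23.0 and 23.9 FPKM in the WT pair and at 23.5 and 19.1 FPKM in the CD38 KO pair, the last library alone being low (log2 change -0.14, 95% interval -0.39 to 0.11).

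Among the channels, Orai1 was lower in both CD38 KO libraries and its relatives were higher, each short of the threshold. Orai1, the pore of the classical store-operated current, stood at 21.7 and 22.3 FPKM in the WT pair and at 19.2 and 18.2 FPKM in the CD38 KO pair (log2 change -0.22, SE 0.06, limma adjusted p = 0.0554). It passed with a filter at 5 FPKM (0.049), with quantile normalization (0.0433) and with median-of-ratios scaling (0.0489). Orai2 stood at 15.4 and 14.6 FPKM in the WT pair and at 18.6 and 16.6 FPKM in the CD38 KO pair (log2 change 0.21, SE 0.07, adjusted p = 0.119), and Orai3 at 12.9 and 14.1 FPKM in the WT pair and at 16.4 and 15.5 FPKM in the CD38 KO pair (log2 change 0.22, SE 0.07, adjusted p = 0.091). The Orai1 share of the family's summed FPKM was 43.5% ± 0.225 in WT and 35.8% ± 0.625 in CD38 KO (SD, n = 2 each), while the sum was 49.96 and 51.0 FPKM in WT and 54.2 and 50.2 FPKM in CD38 KO. The share is described without a test.

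The mitochondrial uniporter genes were not called. Mcu, the pore, stood at 7.0 and 6.95 FPKM in the WT pair and at 7.56 and 7.36 FPKM in the CD38 KO pair (log2 change 0.08, 95% interval -0.09 to 0.26). Micu2, a gatekeeper of the pore, stood at 34 and 31.5 FPKM in the WT pair and at 29.9 and 30.7 FPKM in the CD38 KO pair (log2 change -0.11, 95% interval -0.25 to 0.04). Micu3, a gatekeeper known from brain, stood at 3.12 and 3.50 FPKM in the WT pair and at 2.87 and 3.28 FPKM in the CD38 KO pair (log2 change -0.08, 95% interval -0.35 to 0.19). Mcub, a pore subunit that lowers uptake, stood at 0.259 and 0.185 FPKM in the WT pair and at 0.390 and 0.538 FPKM in the CD38 KO pair, at most 18 fragments in a library, and was not tested.

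Of the 10 members under the filter, 6 were higher in both CD38 KO libraries than in both WT libraries (Ryr1, Ryr2, Itpr3, Atp2a3, Atp2b3 and Mcub), Slc8a3 was lower in both, and Ryr3, Atp2a1 and Trpa1 overlapped. Among all 13590 genes under the filter that were above 0 in some library, a set not matched on level, the groups did not overlap for 31.5%, and 15.1% were higher in both CD38 KO libraries. In the fit with no filter, in which all 35 members were tested, limma called Itpr3 higher and Atp2b4 lower. Over all genes, that fit called 742 of 26654. Beside the 6 members under the filter that were higher, the microglia and macrophage marker sum was 6.81-fold higher in CD38 KO, and its part in them was not tested.

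Other genes of calcium signalling were read from a list of 136 genes in the files, of which 96 were tested. Of these, 8 rose and 7 fell in CD38 KO, Cd38 among the latter, which is 15.6% of those tested beside the 14.4% of all genes. Their median log2 change was -0.007. With quantile normalization 5 rose and 11 fell. Without 1 library 0 to 2 rose and 2 or 3 fell, with Calr and Cd38 called lower in all 4 such fits, no other of the called genes keeping its call in more than 1 of them, and 10 to 15 genes higher at an unadjusted p under 0.05.

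The group of store proteins, calcium-binding proteins along with membrane proteins such as Tmco1 and Tmbim6, had 2 of 11 tested genes called lower and none higher. Of all tested genes, 6.35% were lower and 8.0% higher. In all, 4 of the 11 had an unadjusted p under 0.05, 3 of them lower, where 30.3% of all tested genes reached it in either direction. Calr, calreticulin, the main calcium buffer of the endoplasmic reticulum, fell from 490 ± 6.87 to 356 ± 1.18 FPKM (SD, n = 2 each), 1.38-fold (log2 change -0.46, SE 0.04, limma adjusted p = 0.0015). Rcn1, reticulocalbin, fell from 51.4 to 42 FPKM (limma adjusted p = 0.0312), a call that ended when any single library was left out (adjusted p 0.0672 to 0.178).

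Partners of release channels rose in 2 of 11, Ahcyl2, a relative of an IP3 receptor inhibitor, from 32.2 to 40.9 FPKM and the scaffold Homer3 from 37.3 to 43.4 FPKM. Regulators of store-operated entry had 1 of 5 higher, Cracr2b, a calcium-sensing binder of Orai1, from 3.86 to 5.29 FPKM. Over all tested genes, 8.0% were called higher and 6.35% lower. None of the 8 tested uniporter partners and none of the 4 tested pump and exchanger regulators was called by limma. At an unadjusted p under 0.05 there were 1 lower and 2 higher, respectively, where 30.3% of all tested genes reached it in either direction.

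Among the enzymes that make or remove IP3, 2 of 12 rose, where 8.0% of all tested genes were called higher. Plcg2, a phospholipase C known from immune cells, rose from 1.89 to 3.86 FPKM, 2.05-fold (limma adjusted p = 0.00735), and the IP3 kinase Itpkb rose from 10.7 to 12.9 FPKM (0.0498). Trpv2, a channel known from macrophages, was the gene called among 5 other tested TRP channels, at 1.36 and 0.649 FPKM in the WT pair and at 2.59 and 2.53 FPKM in the CD38 KO pair. Beside Plcg2 and Trpv2 too, the summed microglia and macrophage markers were 6.81-fold higher, and their part was not tested.

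Downstream of calcium, 2 of 20 tested calmodulin, kinase and calcineurin genes rose and 2 fell. Over all tested genes, 8.0% were called higher and 6.35% lower. Camk2a, a kinase isoform of neurons, fell from 6.93 to 3.72 FPKM, 1.86-fold (log2 change -0.75, SE 0.09, limma adjusted p = 0.00552), and the calcineurin inhibitor Rcan1 from 114 to 91.0 FPKM (0.00858). Nfatc1, a transcription factor that calcineurin activates, rose from 4.46 to 6.34 FPKM (0.0206), and so did the kinase inhibitor Camk2n1, from 2.55 to 3.93 FPKM. The channel subunit Cacnb3 fell from 21.0 to 15.0 FPKM, the gene called among 8 tested voltage-gated channel subunits, and the immunophilin Fkbp7 fell from 38.8 to 31.7 FPKM, the gene called among 10.

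**Figure D5:**
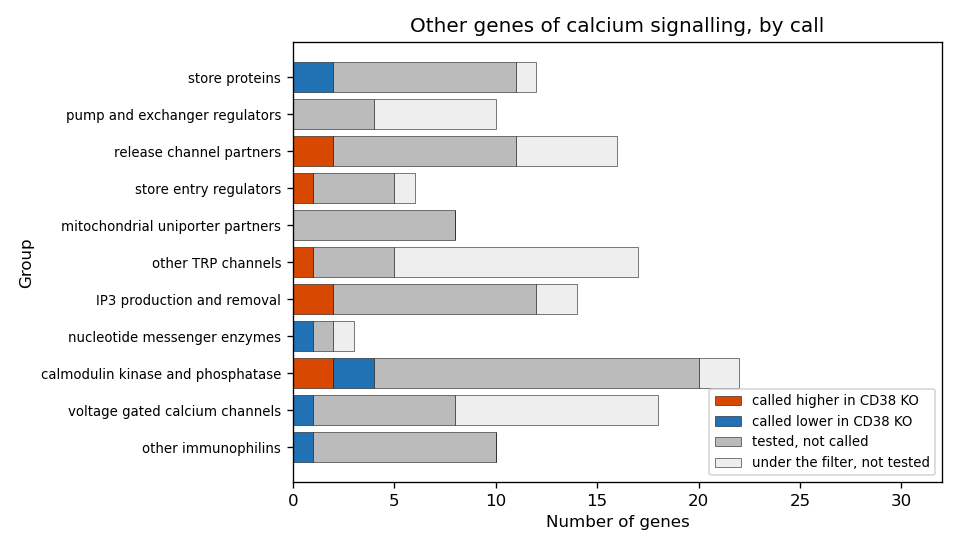
Number of other calcium signalling genes in each of 11 groups that were called higher, called lower, tested but not called, or under the filter. Called genes are a small part of each bar, and 8 of the 96 tested genes were higher and 7 lower.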

How the data were processed

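The deposited values are FPKM per gene, per the file headers, 1 file for each of 4 libraries. Build GRCm38 and the tools STAR 2.7.0f, Cufflinks 2.2.1 and bcl2fastq 2.17 are listed in the submitters' processing notes. Annotation release and between-library scaling: not given in the sources used here. Gene positions were read from GENCODE M21 (GRCm38), where IDs matched for 55226 of 55467. The 13064 genes whose mean reached 1 FPKM (Cd38 kept in any case) entered a limma 3.58.1 fit (R 4.3.3) of log2(FPKM + 1) on genotype alone, with a variance trend and Benjamini-Hochberg adjustment over all of them; changes of low genes are understated on this scale. Folds are ratios of mean FPKM. The script was tested on simulated data with independent noise, which these data need not have. FPKM are not counts, so no count model was used. Depth was estimated from the steps of low values in 17493 genes with 1 transcript; 91.6% to 92.3% of low values lay within 0.1 of a whole fragment. Fragment limits use the longest annotated transcript and cover counting error only. Every tested member is named; among other pathway genes, up to 3 called genes per group of smallest p. Members and lists were chosen with earlier results of these data known. Promoters came from RefSeq (GRCm38.p6). Other steps used Python 3.11.15. Alternatives were other values added before the log (0.1, 0.5), no filter or 5 FPKM, other scaling, moderation and pairing, and each library left out. With 1 library left out, its remaining partner takes the spread of the other pair.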

Additional observations from a re-analysis of the deposited data

How the results depend on the processing

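Having 2 libraries per genotype limits the precision, and several members under 1 FPKM rest on few fragments. With no filter (1 higher and 1 lower member, 2 higher and 4 lower pathway genes, 742 genes in all) more genes were tested. A filter at 5 FPKM left 19 members tested, without Atp2b2 and Trpm2, which are under it. That fit gave 2 higher members, Stim1 among them, 2 lower members, Orai1 among them, and 4 higher pathway genes. Quantile normalization gave 2 lower members with 5 higher and 11 lower pathway genes, median-of-ratios scaling 2 lower members, and moderation without a trend 5 higher pathway genes. The replicate block gave 1 higher member (Trpm2, adjusted p = 0.0479 by limma, while Atp2b2 at 0.0607 and Slc8b1 at 0.0692 lost the call), 2 higher pathway genes and 1037 called genes. Replicate differences of the genotypes correlated at -0.161 across genes, so the numbers were not taken as pairs; crossing them, which was chosen after seeing the data, gave 1961 called genes and 3 higher and 1 lower members. Leaving out 1 library gave 0 to 1 higher members, 0 to 2 higher and 2 to 3 lower pathway genes and 547 to 742 called genes, fewer samples in each case. The sign of 5 members that were not called turned in such fits: the log2 change ranged from -0.033 to 0.081 for Camk2d, -0.045 to 0.042 for Tpcn1, -0.014 to 0.133 for Atp2c1, -0.281 to 0.003 for Stim2 and -0.191 to 0.298 for Trpc1. Of 537 values for 39 single genes, 435 kept direction and side of the threshold, 90 lost the call, 6 gained it and 6 turned sign. The cause of these shifts was not tested.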

Other observations

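Of the 35 members, 6 lie on chromosome 5 with Cd38. Stim2 is the nearest, 10.1 Mb away, and was not called. Tpcn1, Slc8b1, Atp2a2, Orai1 and Orai2 lie 76.6 to 92.2 Mb away, and Slc8b1 is the one of these that was called. Bst1, the relative of Cd38 that lies beside it and also makes cyclic ADP-ribose, stood at 0.259 and 0.299 FPKM in the WT pair and at 0.414 and 0.707 FPKM in the CD38 KO pair, under the filter. Sarm1, a further enzyme that cleaves NAD+, stood at 1.26 and 1.48 FPKM in the WT pair and at 1.30 and 1.33 FPKM in the CD38 KO pair and was not called.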
